A study of Mus musculus with 20 samples.

Results

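Prostaglandins are made from arachidonic acid in steps, and 9 genes of their synthesis and reception are described here in the right and left atria of mice carrying the Tbx5 G125R allele. The genes are Ptgs1 and Ptgs2, the cyclooxygenases, the terminal enzymes Ptgds, Hpgds, Ptgis and Ptges, and the receptors Ptgfr, Ptgir and Ptger4. They were taken by name, 9 of 41128 genes in the tables, and all 9 had reads in both atria. Ptgds was chosen by its lower level in mutant right atria in earlier work on these libraries, so its values are given as a description without a test. The other 8 genes were tested. In mutant right atria the transcript of the prostacyclin synthase Ptgis was lower and that of the prostaglandin F receptor Ptgfr was higher, and in left atria none of the 8 passed the test. The call of Ptgis was kept in 11 of 22 alternative fits and that of Ptgfr in 21. None of the 8 was called for a difference in the change between the atria.

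Phospholipases free arachidonic acid from membranes, and the cyclooxygenases turn it into an unstable intermediate. Terminal synthases convert that intermediate into the prostaglandins D, E and F, into prostacyclin or into thromboxane, each of which acts on its own G protein-coupled receptors close to where it was made. In the heart and its vessels, prostacyclin and prostaglandin E are known for relaxing smooth muscle, and the F receptor for raising intracellular calcium.

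The samples were whole atria of female mice aged 8 to 12 weeks, in 20 libraries of total RNA. Each atrium was taken from control and from mutant mice, which gives 4 groups of 5 libraries. Mutant mice carried the Tbx5 G125R missense allele, made with CRISPR-Cas9, on 1 of their copies of the gene, and controls carried none. The study states that the right atrial samples contained sinoatrial node tissue, and the labels do not tell which libraries came from the same mouse, so every p sets a difference against the scatter of the libraries in a group, which may be partly technical. Depth was 17.5 to 26.8 M reads in right and 19.1 to 24.8 M reads in left libraries, and mitochondrial rRNA took 7.28% to 15.7% of right and 19.5% to 46.7% of left libraries, highest in control left 4 and mutant left 4. Tbx5 itself was at 6113 ± 1088 (SD, n = 5) normalized counts in control and 6153 ± 584 in mutant right atria (adjusted p = 0.937, limma), and at 1459 ± 329 and 1520 ± 189 in left atria (adjusted p = 0.794). All 8 cardiomyocyte markers examined had reads in every library.

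Tbx5 is a T-box factor, a class known to bind the half-site AGGTGTGA, so the 250 bases before the start site are printed for the 2 genes whose control and mutant right libraries did not overlap. Sequences are from RefSeq on GRCm38.p6, both on the minus strand and read 5′ to 3′, Ptgds from chr2:25469750-25469999 and Ptgfr from chr3:151837529-151837778, and capitals mark AGGTGT or GGTGTG on either strand. These letters overlap by 5 bases, they were chosen after the sequences had been seen, and 8 of the 9 genes had an entry. Positions are counted from the start sites of these entries. By the gene positions of GENCODE M21, the Ptgds window lies within its gene and the Ptgfr window partly so.
Ptgds: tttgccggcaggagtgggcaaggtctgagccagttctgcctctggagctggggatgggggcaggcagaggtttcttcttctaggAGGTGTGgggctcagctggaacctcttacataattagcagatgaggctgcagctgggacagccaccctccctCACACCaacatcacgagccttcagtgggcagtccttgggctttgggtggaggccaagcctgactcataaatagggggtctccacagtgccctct
Ptgfr: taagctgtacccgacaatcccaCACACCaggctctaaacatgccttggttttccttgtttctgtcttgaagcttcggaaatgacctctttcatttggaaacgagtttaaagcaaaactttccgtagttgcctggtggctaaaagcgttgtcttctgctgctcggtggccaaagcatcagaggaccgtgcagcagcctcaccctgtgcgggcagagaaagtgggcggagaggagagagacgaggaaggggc

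The full AGGTGTGA was in neither window, nor in those of the other 6 genes with an entry, and 1.12% of 32851 mouse windows of the same length held it on either strand. The Ptgds window held AGGTGT at -166 from the start site and GGTGTG at -165 and, on the other strand, at -94. The Ptgfr window held GGTGTG at -228, and of the other genes only Ptges held AGGTGT, at -158. The Ptges window also lies within its GENCODE gene. AGGTGT was in 11.8% and GGTGTG in 16.3% of all windows. A match of letters is a description and not a binding site.

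Ptgds, the lipocalin-type prostaglandin D synthase, which also circulates as a carrier of small lipids, was among the most abundant of the 9 transcripts in control right atria and was low in left atria. In GENCODE M21 its gene (ENSMUSG00000015090) lies on chromosome 2, 25466709 to 25470046, with no overlapping gene. Right control libraries 1 to 5 held 1872, 2738, 2089, 3008 and 1671 normalized counts of Ptgds, and right mutant libraries 471, 882, 552, 543 and 813. All 5 mutants were lower than all 5 controls, and the lowest control was 1.90 times the highest mutant. The means were 2276 ± 573 (SD, n = 5) and 652 ± 183, a log2 fold change of -1.81 ± 0.19 (SE), which is 3.50-fold lower in mutants.

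In left atria Ptgds rested on 3 to 23 reads per library. Left control libraries held 8.60, 25.1, 9.46, 35.4 and 11.8 normalized counts, and left mutant libraries 16.3, 10.1, 2.99, 8.41 and 17.4. The genotypes overlapped, with means of 18.1 ± 11.8 (SD, n = 5) and 11.0 ± 5.93 and a log2 fold change of -0.64 ± 0.49 (SE). The right and left tables were normalized separately, so the levels of 2276 in right and 18.1 in left controls stand side by side without a test. Mean marker sums of control libraries also differed between these tables. They were 1.37e+06 in right and 204990 in left for cardiomyocytes, and 221146 and 63791 for fibroblasts. Endocardial sums were alike, at 23169 and 23883. In whole tissue, fewer cells of a type and less RNA per cell cannot be told apart, for Ptgds and for every gene below.

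**Figure D1:**
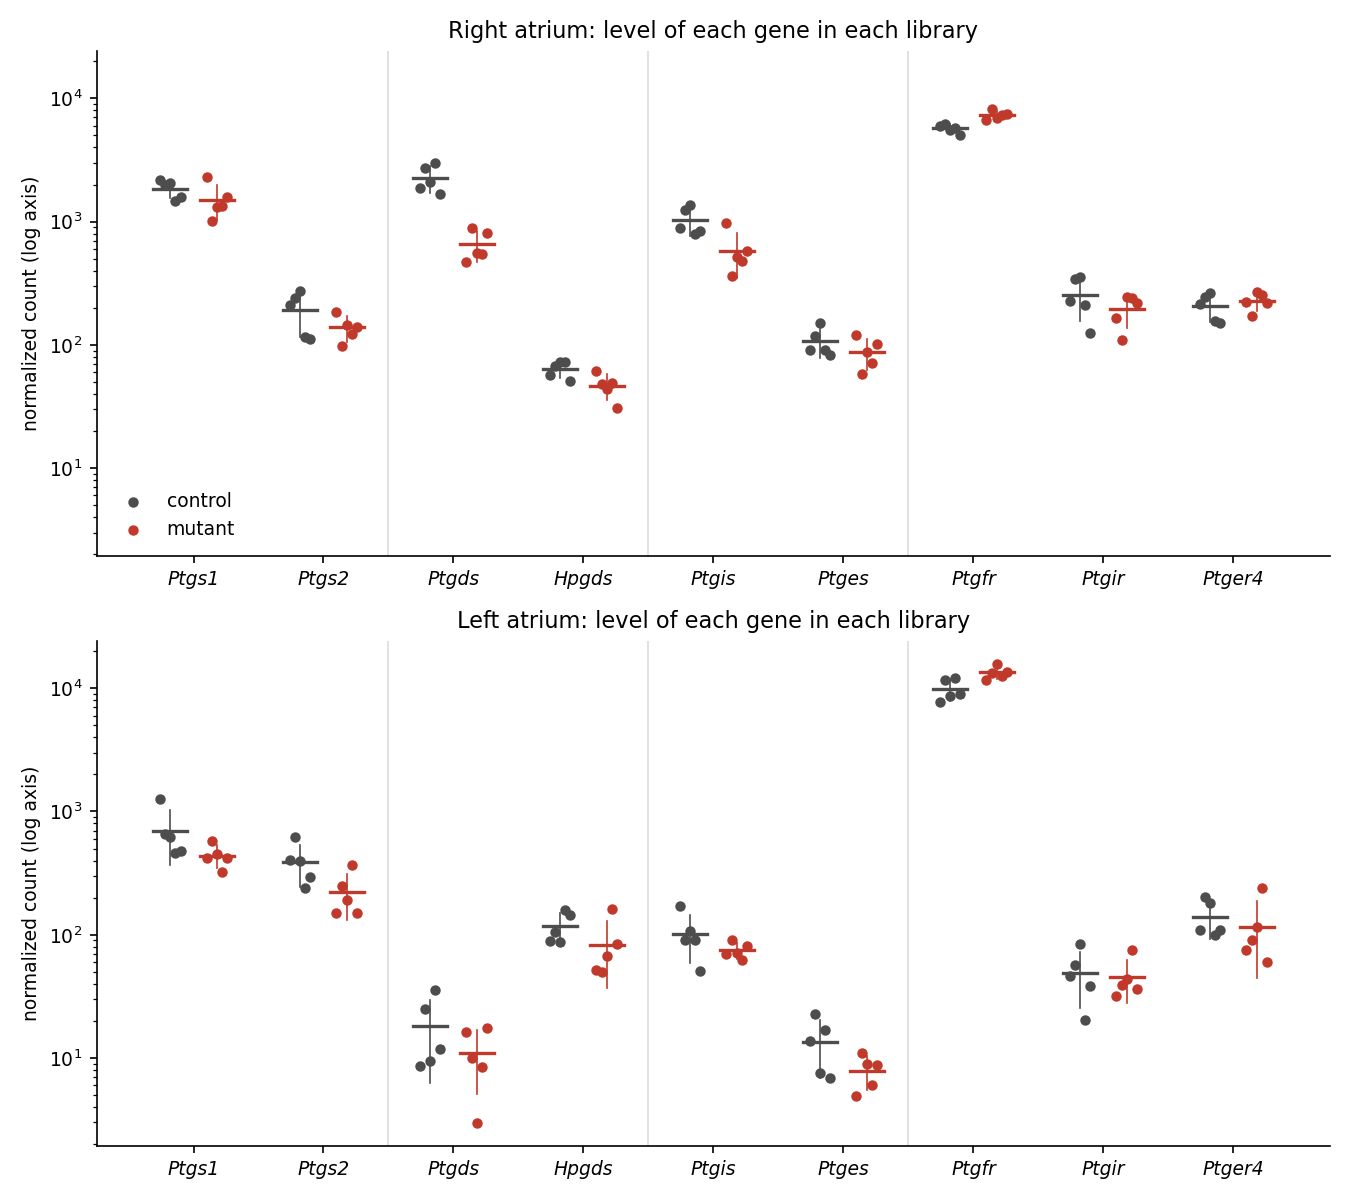
Normalized count (log axis) of the 9 genes in each library, right atrium above and left atrium below, with control libraries in grey and mutant libraries in red. Points are libraries, horizontal bars group means and vertical lines 1 SD (n = 5). In the right panel all 5 mutant points lie below the controls for Ptgds and above them for Ptgfr, and every other pair of groups overlaps.

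The next comparison asks how the allele changed the cyclooxygenases, the enzymes that commit arachidonic acid to prostaglandins. Neither passed the test in either atrium, and all 4 estimates were below 0. Ptgs1, the form that most cells keep at a steady level (ENSMUSG00000047250, chromosome 2, 36230426 to 36252272), held 2173, 1978, 2046, 1483 and 1575 normalized counts in right control libraries 1 to 5 and 2288, 1004, 1304, 1346 and 1593 in right mutants. Mutant 1 was above every control, while 3 mutants were below every control. The log2 fold change was -0.34 ± 0.18 (SE; adjusted p = 0.316, limma). Left control libraries held 1273, 661, 619, 460.1 and 477 normalized counts of Ptgs1, and left mutants 418, 578, 452, 326 and 422. Control 1 stood far above the other 9 left libraries, 4 mutants lay below every control, and the log2 fold change was -0.58 ± 0.25 (adjusted p = 0.272).

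Ptgs2, the form induced by injury, inflammation and stretch (ENSMUSG00000032487, chromosome 1, 150100031 to 150108227), held 211, 241, 274, 116 and 112 normalized counts in right controls and 186, 98.6, 146, 122 and 140.0 in right mutants. The groups overlapped, with 2 controls within the mutant range, and the log2 fold change was -0.39 ± 0.26 (SE; adjusted p = 0.402). Left controls held 403, 622, 398, 238 and 296 normalized counts of Ptgs2, and left mutants 151, 248, 192, 369 and 149.7. Of the left mutants, 3 lay below every control and mutants 2 and 4 within the control range. The log2 fold change in left atria was -0.83 ± 0.28 (unadjusted p = 0.0101 in the limma model, adjusted p = 0.200). Without mutant left 4, the highest of the left mutants, it was -1.03 with an adjusted p of 0.0455. No other single library left out gave a call, with adjusted p of 0.141 or more.

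Of the other terminal enzymes, Ptgis was lower in mutant right atria, and Hpgds and Ptges did not pass the test. Ptgis encodes prostacyclin synthase, a cytochrome P450 enzyme known from endothelial, smooth muscle and mesothelial cells (ENSMUSG00000017969, chromosome 2, 167191805 to 167240604). Right control libraries 1 to 5 held 883, 1234, 1361, 788 and 843 normalized counts of Ptgis, and right mutants 966, 361, 512, 483 and 578. Mutants 2 to 5 lay below every control and mutant 1 within the control range. Mutant 1 also held the highest sum of mesothelial markers among the mutants, 15075 normalized counts against 4095 to 10257, while control 5, with the highest sum of all 10, held the second lowest Ptgis of the controls. The means were 1022 ± 258 (SD, n = 5) and 579.8 ± 229.6, a log2 fold change of -0.86 ± 0.23 (SE) or 1.82-fold lower (adjusted p = 0.0415, limma). The call was kept in 11 of 22 alternative fits, and its adjusted p ran from 0.00302 to 0.109. The lowest came from leaving out control 5 and mutant 1, a choice made after seeing the data. With edgeR the adjusted p was 0.0626. Reads of Ptgis cannot be told from those of an opposite-strand transcript, 1110018N20Rik, over 6.08% of its exon length.

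In left atria, whose table has its own scale, Ptgis held 171, 91.2, 107, 91.0 and 51.0 normalized counts in controls. Left mutants held 70.0, 91.4, 71.7, 62.5 and 80.8. All 5 mutants lay within the control range. The log2 fold change was -0.35 ± 0.27 (SE; adjusted p = 0.469).

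Hpgds, the glutathione-dependent prostaglandin D synthase known from mast cells, macrophages and other blood-derived cells (ENSMUSG00000029919, chromosome 6, 65117293 to 65144908), held 57.2, 67.8, 72.0, 72.7 and 50.7 normalized counts in right controls and 61.6, 48.2, 44.3, 48.9 and 31.0 in right mutants. All mutants but number 1 lay below every control, and the log2 fold change was -0.46 ± 0.19 (SE; unadjusted p = 0.0265 in the limma model, adjusted p = 0.171). Left controls held 89.4, 106, 88.0, 160.1 and 144 normalized counts of Hpgds, and left mutants 51.6, 50.3, 66.7, 162 and 84.7. Mutant 4 was above every control and the other mutants below every control, with a log2 fold change of -0.60 ± 0.30 (adjusted p = 0.328).

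Ptges, the inducible prostaglandin E synthase of the microsomal membrane (ENSMUSG00000050737, chromosome 2, 30889471 to 30929863), held 90.5, 117, 152, 91.7 and 82.1 normalized counts in right controls and 121, 58.3, 86.7, 70.8 and 101 in right mutants. The groups overlapped and the log2 fold change was -0.29 ± 0.21 (SE; adjusted p = 0.458). In left atria Ptges ranged from 6.86 to 22.8 normalized counts in controls and from 4.95 to 11.0 in mutants, with a log2 fold change of -0.63 ± 0.39 (adjusted p = 0.392).

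Among the receptors, Ptgfr was higher in mutant right atria, and Ptgir and Ptger4 did not pass the test. Ptgfr, the receptor of prostaglandin F, which couples to Gq and phospholipase C (ENSMUSG00000028036, chromosome 3, 151796502 to 151837630), held 5927, 6229, 5568, 5753 and 5088 normalized counts in right control libraries 1 to 5 and 6613, 8123, 6990.2, 7328 and 7433 in right mutants. Every mutant lay above every control. The means were 5713 ± 426 (SD, n = 5) and 7297 ± 562, a log2 fold change of 0.35 ± 0.07 (SE) or 1.28-fold higher (adjusted p = 0.0115, limma). The call was kept in 21 of 22 alternative fits and was lost when all 4 groups shared 1 model (adjusted p = 0.213), and over 4.85% of its exon length Ptgfr overlaps Gm43618 on the opposite strand.

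Left control libraries held 7789, 11725, 8701, 12151 and 8909.6 normalized counts of Ptgfr, and left mutants 11673, 13395, 15845, 12665 and 13577. In this atrium 4 of 5 mutants lay above every control, and mutant 1 lay among the higher controls. The log2 fold change was 0.46 ± 0.17 (SE; unadjusted p = 0.0168 in the limma model, adjusted p = 0.226).

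Ptgir, the prostacyclin receptor, which raises cAMP (ENSMUSG00000043017, chromosome 7, 16906490 to 16910905), held 229, 344, 354, 211 and 125.4 normalized counts in right controls and 165, 109, 244, 239 and 217 in right mutants. The ranges overlapped, with a log2 fold change of -0.34 ± 0.28 (SE; adjusted p = 0.527). Left atria held 20.2 to 84.2 normalized counts of Ptgir in controls and 31.8 to 75.7 in mutants, with a log2 fold change of -0.04 ± 0.34 (adjusted p = 0.955) whose sign turned in other fits.

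Ptger4, a receptor of prostaglandin E that also raises cAMP (ENSMUSG00000039942, chromosome 15, 5206661 to 5244187), held 214, 244, 264, 155 and 150.3 normalized counts in right controls and 223, 171, 270.0, 253 and 221 in right mutants. It was the other member with an estimate above 0 in right atria, a log2 fold change of 0.17 ± 0.17 (SE; adjusted p = 0.608), and the groups overlapped. Left controls held 108, 204, 182, 99.4 and 109 normalized counts of Ptger4 and left mutants 75.7, 90.5, 116, 239 and 60.2. Of these mutants 3 lay below every control and mutant 4 above, with a log2 fold change of -0.38 ± 0.33 (adjusted p = 0.517). Over 15.3% of its exon length Ptger4 overlaps Gm15937, a pseudogene on the opposite strand, and the libraries do not separate strands.

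**Figure D2:**
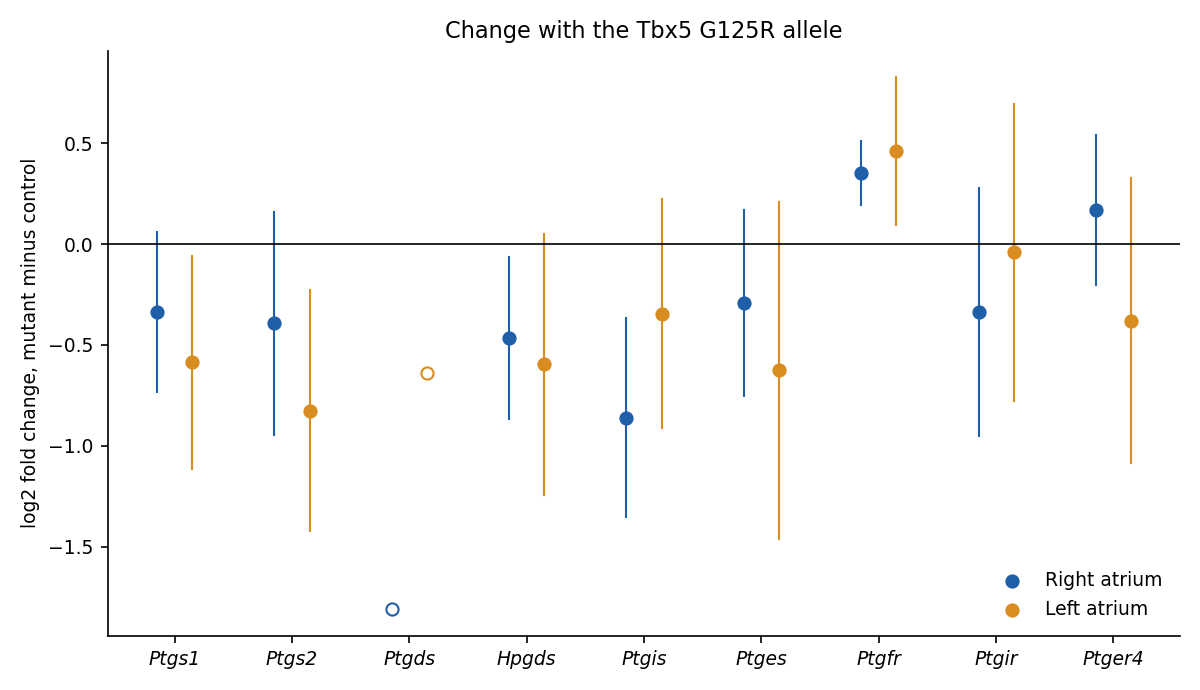
Log2 fold change, mutant minus control, of the 9 genes in right (blue) and left (orange) atria, with 95% confidence intervals from the limma model. Open points mark Ptgds, which was chosen for its change and carries no interval. Before adjustment over all genes, the intervals of Ptgis and Hpgds lie below 0 and that of Ptgfr above 0 in right atria, and those of Ptgs1 and Ptgs2 lie below 0 and that of Ptgfr above 0 in left atria.

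Of the 8 tested members, 2 were called in right atria, Ptgfr higher and Ptgis lower, where 6.23% of all 14288 tested genes were called (442 higher and 448 lower). The values of 1 of the 8, Ptgfr, did not overlap between genotypes, against 7.36% of all genes. Of the 8 estimates 6 were below 0, with a median log2 fold change of -0.34, beside -0.01 over all genes. In left atria 0 of 8 were called by limma, edgeR or DESeq2, where limma called 1.20% of 13192 tested genes. An unadjusted p under 0.05 in limma was found for 3 of the 8 and for 2188 of all 13192 genes. None of the 8 had groups that did not overlap, against 3.47% of all genes, and 7 of 8 estimates were below 0 with a median of -0.48, beside -0.01 over all genes. With control right 5 and mutant right 1 left out, the libraries of highest mesothelial markers in their groups, a choice made after seeing the data, 7.64% of 14294 genes and 4 members were called in right atria, adding Ptgs1 (-0.55, adjusted p = 0.0371) and Hpgds (-0.65, adjusted p = 0.0495) to Ptgis (-1.12, adjusted p = 0.00302) and Ptgfr. For Ptgs1, Hpgds and Ptgis this leaves out the highest mutant and a low control. Ptgds was at -1.80 in that fit.

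The last comparison asks whether the change differed between the atria. None of the 8 members was called for the difference by limma, edgeR or DESeq2, where limma called 0.0638% of 12537 genes. An unadjusted p under 0.05 in limma was found for 0 of the 8 and for 1020 of all 12537 genes. For Ptgis the left change minus the right change was 0.52 (95% confidence interval -0.24 to 1.28, adjusted p = 0.581), and for Ptger4 it was -0.55 (-1.39 to 0.29, adjusted p = 0.590). For Ptgfr the difference was 0.11 (-0.25 to 0.47, adjusted p = 0.782). The intervals of all 8 spanned 0, and their widths leave room for differences of the size of the changes themselves. The model takes the libraries as independent, although same-numbered control right and left libraries varied together (r from 0.339 to 0.526). With the number within each genotype as a block, added after seeing the data, 2 genes and none of the 8 members were called for the difference.

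Per kilobase of exon, a scale on which genes can be set against each other within a library, Ptgds led in control right atria with 1380.0 ± 348 (SD, n = 5) normalized counts per kilobase, above Ptgfr at 843 ± 62.8 in every library. Ptgs1 (477 ± 78.3) and Ptgis (398 ± 101) followed and overlapped each other. The remaining 5 were far lower, from 75.8 ± 28.9 for Ptgir to 9.97 ± 1.51 for Hpgds, and Ptgir, Ptgs2, Ptger4 and Ptges overlapped in that order. In mutant right atria Ptgfr led with 1077 ± 82.9. Ptgds (396 ± 111) overlapped Ptgs1 (388 ± 124.7), and Ptgs1 overlapped Ptgis (226 ± 89.4). In left atria Ptgfr was far above all others, at 1454 ± 288 in controls and 1982 ± 228 in mutants. There Ptgs1 (179.7 ± 85.7 in controls) and Ptgs2 (85.5 ± 32.0) came next and Ptgds stood eighth of 9 in both genotypes.

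The rest of the pathway was read from 6 lists of 61 measured genes: arachidonic acid release, other synthases, other receptors, transport and breakdown, the leukotriene arm, and G proteins with their effectors. In right atria 47 of these were tested and 2 were called by limma, 4 by edgeR and 7 by DESeq2. Over all genes limma called 6.23%, edgeR 6.09% and DESeq2 9.18%. An unadjusted p under 0.05 in limma was found for 12 of the 47 and for 3037 of all 14288 genes. In left atria 42 were tested and 0 called by limma, 1 by edgeR and 2 by DESeq2. Over all genes limma called 1.20% there, edgeR 1.29% and DESeq2 3.27%. An unadjusted p under 0.05 in limma was found for 8 of the 42 and for 2188 of all 13192 genes. Alox5, the lipoxygenase at the head of leukotriene synthesis, fell in mutant right atria, with 155 ± 15.7 normalized counts in controls (SD, n = 5) and 85.8 ± 15.2 in mutants (log2 fold change -0.85 ± 0.13, SE, adjusted p = 0.00142, limma). Plcb1, a phospholipase C that Gq-coupled receptors activate, rose there from 166 ± 21.8 to 253 ± 39.7, a log2 fold change of 0.60 ± 0.13 (adjusted p = 0.0137). In left atria Alox5 was at -0.59 ± 0.27 (adjusted p = 0.291) and Plcb1 at -0.11 ± 0.18 (adjusted p = 0.734).

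In the list for arachidonic acid release, 0 of 8 genes were called by limma in right atria (3 at an unadjusted p under 0.05, 1 called by edgeR and 2 by DESeq2). Pla2g4e, named after its values were seen, went from 908 ± 137 (SD, n = 5) to 1229 ± 175 normalized counts in right atria (adjusted p = 0.0502, limma) and from 205 ± 48.3 to 382 ± 104 in left atria (adjusted p = 0.0641). With edgeR its adjusted p was 0.0372 in right and 0.0449 in left atria. Pla2g4a, the calcium-dependent cytosolic enzyme, also named after its values were seen, went the other way, from 572 ± 96.6 to 394 ± 93.3 in right atria (adjusted p = 0.0589) and from 639 ± 142 to 393 ± 114 in left atria (adjusted p = 0.162). In right atria the adjusted p of Pla2g4a was 0.0740 with edgeR and 0.0241 with DESeq2, and in left atria 0.165 and 0.0688. The abundant Pla2g5, Plaa and Mgll lay between -0.34 and 0.03 on the log2 scale in both atria and did not pass.

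The lists of other synthases, other receptors, and transport and breakdown held 0 genes called by limma or edgeR in either atrium, with 3 at an unadjusted p under 0.05 in right and 2 in left atria, and DESeq2 called 1, Ptgfrn in right atria (adjusted p = 0.0495). Of the other synthases, Ptges3, a cytosolic prostaglandin E synthase that also serves as a chaperone partner, was at -0.16 ± 0.08 (SE) in right and -0.61 ± 0.24 in left atria, the latter with an adjusted p of 0.247. Ptges2 was at -0.23 ± 0.09 and Akr1b3, which can make prostaglandin F, at -0.05 ± 0.13 in right atria. Hpgd, the dehydrogenase that starts prostaglandin breakdown, was at -0.44 ± 0.22 and -0.68 ± 0.37, the carrier Slco3a1 at 0.15 ± 0.08 and -0.23 ± 0.19, and the reductase Ptgr2 at -0.08 ± 0.07 in right atria. Ptgfrn, a negative regulator of the F receptor, was at -0.20 ± 0.07 in right atria (adjusted p = 0.112, limma), Ptger1 at -0.09 ± 0.09 and Pparg at 0.27 ± 0.15. Ptgdr, a receptor of prostaglandin D, named after its values were seen, averaged 0 normalized counts in control and 0.177 in mutant right atria, and 1.30 and 0.341 in left atria, under the level at which genes were tested.

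**Figure D3:**
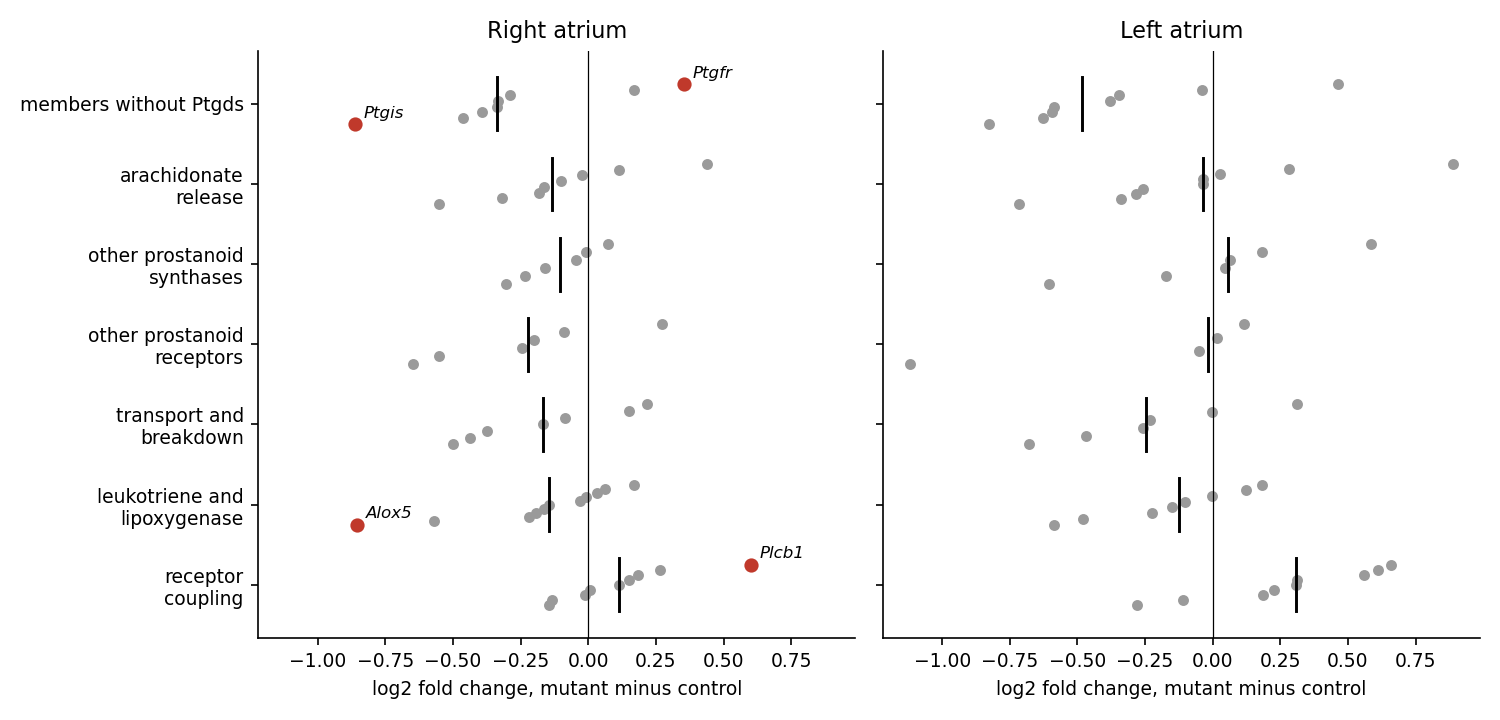
Log2 fold change, mutant minus control, of each tested gene in 7 lists, right atrium on the left and left atrium on the right. Points are genes, red points those called at an adjusted p under 0.05, and black bars list medians. Ptgis, Ptgfr, Alox5 and Plcb1 are called in right atria, and no gene in left atria.

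Several members varied together from library to library. With the group mean taken from each library's log2 value, Pearson's r over the 10 right libraries was 0.93 between Ptgis and Ptges, 0.89 between Ptgis and Ptgs1, and 0.91 between Ptgir and Ptger4. In left libraries the pairs Ptgs1 with Ptgis (0.84), Ptgs2 with Ptger4 (0.86) and Ptgir with Ptger4 (0.79) were also high, while Ptgis with Ptges was at 0.42. Ptgs2 and Ptger4 were at 0.86 in right libraries as well. Ptgds was at 0.77 with Ptgfr in right and 0.31 in left libraries and at or below 0.30 with every other member. These values describe libraries that share tissue pieces and depth, and each rests on 10 points.

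Among 9340 well-expressed genes, those most like each member over both atria, by the mean of the 2 values of r, placed members beside each other and beside listed markers. Ptgis stood closest to Myof (0.91), Gcnt2 (0.90) and Ptgs1 (0.86), and Ptgs1 to Ctla2a (0.95), Tbc1d2b and Myof. Ptgir stood closest to Lhfpl2 (0.94), Pcdh18 and the fibroblast marker Pdgfra (0.91), and Ptger4 to Fam198b (0.94), the fibroblast marker Tcf21 (0.93) and Mecom. Ptgs2 stood closest to Pid1 (0.93), Rffl and Spata6, Ptges to Trim47 (0.83), Anxa3 and AI429214, Hpgds to Lgals8 (0.78), Osgin2 and Pter, and Ptgfr to Kif1b (0.81), Lpl and Nexn. Ptgds had looser neighbours, with Fam73b (0.79), Trim54 (0.76), Myh7 (0.74), Retsat (0.73) and Fam173b (0.73) first, and in left libraries these values rest on its few reads.

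**Figure D4:**
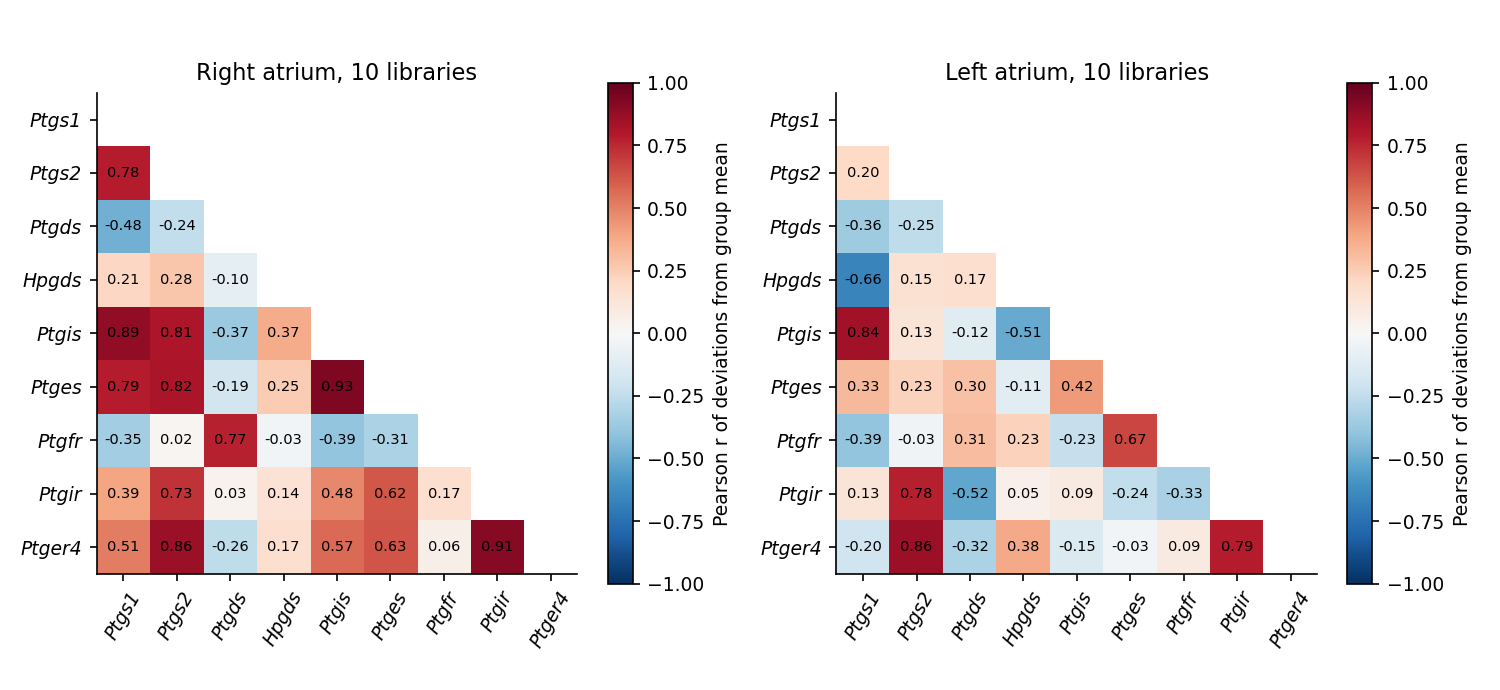
Pearson's r between each pair of the 9 genes over the 10 libraries of an atrium, computed on log2 normalized counts after subtraction of the group mean, right atrium on the left. Red is positive and blue negative. Ptgs1, Ptgs2, Ptgis and Ptges form a block of r from 0.78 to 0.93 in right libraries, and in left libraries the highest pair is Ptgs2 with Ptger4 at 0.86.

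Markers of the cells that such tissue can hold also differed between libraries. Summed over 9 mesothelial markers, right control libraries 1 to 5 held 8843, 8566, 9871, 11557 and 18551 normalized counts and right mutants 15075, 4095, 4585, 7039 and 10257 (exact permutation p = 0.270, two-sided). All 9 had estimates below 0 in mutants, with a median of -0.60, and 0 were called by limma, edgeR or DESeq2 (2 at an unadjusted p under 0.05). Mutant right 1 had the highest mesothelial sum of the mutants and also their highest Ptgs1, Ptgis, Ptges, Hpgds and Ptgs2. Control right 5 went the other way, with the highest mesothelial sum of all 10 right libraries and the lowest Ptges, Hpgds and Ptgs2 of the controls, and the second lowest Ptgs1 and Ptgis. In left atria the sums were 1576 to 5659 in controls and 938 to 2627 in mutants, all 8 tested markers had estimates below 0 (median -0.79), and control 1, the highest, also had the highest Ptgs1 and Ptgis. No mesothelial marker was at 0 in right libraries. The part of these cells in the levels of Ptgs1, Ptgis and Ptges was not tested.

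**Figure D5:**
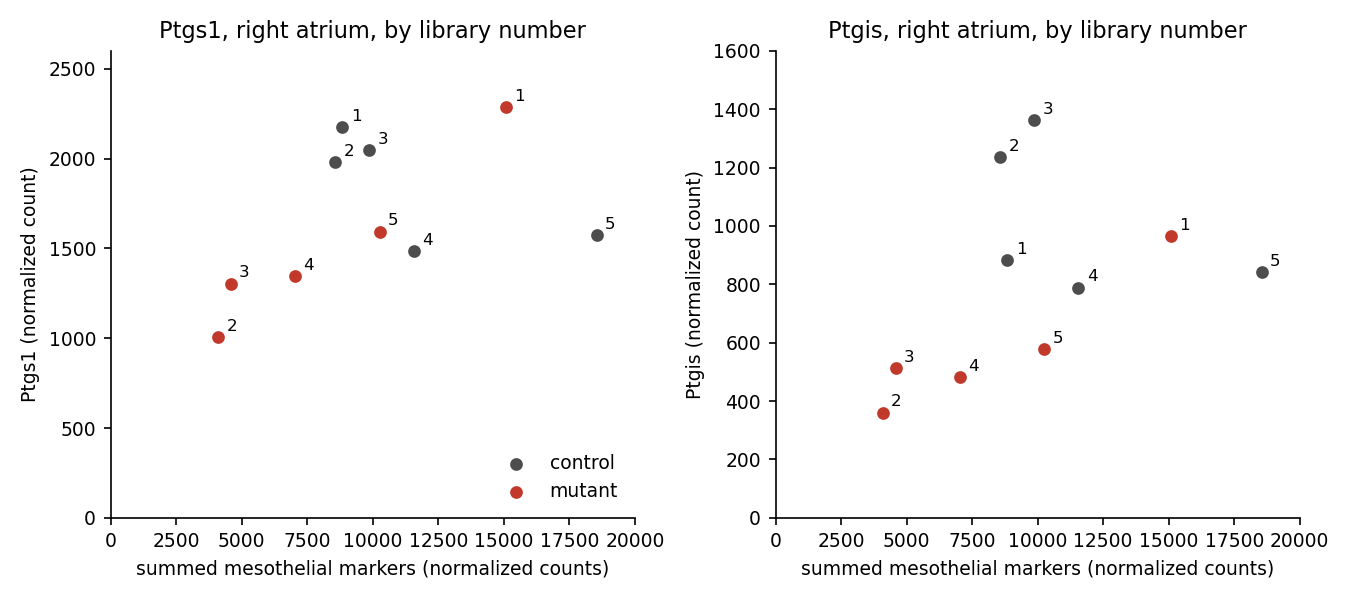
Normalized count of Ptgs1 (left) and Ptgis (right) in the 10 right atrium libraries against the summed level of 9 mesothelial markers. Points are libraries, grey control and red mutant, labelled with the library number. Mutant 1 stands apart from mutants 2 to 5 on both axes, with 15075 for the markers and 966 for Ptgis.

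Beside Hpgds and Alox5, the summed macrophage markers ran from 11575 to 16215 normalized counts in control and from 8490.3 to 12031 in mutant right atria (exact permutation p = 0.0556, two-sided), with 7 of 8 estimates below 0, a median of -0.36 and 0 called by limma, edgeR or DESeq2 (7 at an unadjusted p under 0.05). Of all 14288 genes tested in right atria, 3037 had an unadjusted p under 0.05 in limma. Of 9 mast cell markers, which summed to 280.3 to 335 in control and 185 to 313 in mutant right atria, 2 reached the level for testing in either atrium, and in right atria 0 were called by limma or edgeR and 1 by DESeq2 (1 at an unadjusted p under 0.05). Most of that sum was Kit, at 132 on average in control and 121 in mutant right atria, and Hdc, at 152 and 101. Every other listed mast cell marker averaged higher in mutant right atria, under the level for testing, such as Cpa3 (6.74 and 13.1) and Tpsb2 (3.65 and 10.2). Fcer1a was at 0 in all control right libraries and averaged 0.761 in mutants, while Cpa3, Mcpt4 and Cma1 had reads in every right library. Beside Ptgir, Ptger4 and Ptgs2, fibroblast markers summed to 51356 to 80846.5 in control and 34089 to 73896 in mutant left atria (exact permutation p = 0.159, two-sided). In right atria they summed to 141654 to 297214 in controls and 122258 to 225984 in mutants (exact permutation p = 0.175). Mutant left 4 had the highest sum of the left mutants and also their highest Ptgir, Ptger4, Ptgs2 and Hpgds. All 9 fibroblast markers in right and 8 of 9 in left atria had estimates below 0, with medians of -0.29 and -0.25, and 0 were called in either by limma, edgeR or DESeq2 (1 in each at an unadjusted p under 0.05). Endocardial markers summed to 13817 ± 3748 (SD, n = 5) in mutant and 23883 ± 6864 in control left atria (exact permutation p = 0.0317, adjusted p = 0.216 over 34 library properties).

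Beside Ptgis, smooth muscle and pericyte markers summed to 13267 to 19549.7 normalized counts in control and 11013 to 16322 in mutant right atria, and 2 of 9 were called, both lower. Their log2 fold changes were -3.20 for Cnn1, a calponin (adjusted p = 8.77e-07, limma), and -0.86 for Acta2, an actin (adjusted p = 0.0429). Of all 9 estimates 3 were above 0 and 6 below, with a median of -0.05. Endothelial markers summed to 19197 to 29436 in control and 20783 to 26605 in mutant right atria. Of these, 1 of 8 was called, the growth factor receptor Kdr, which rose by 0.60 (adjusted p = 9.49e-05, limma). The endothelial estimates were above 0 for 3 markers and below for 5, with a median of -0.17. In left atria 0 of the 8 tested markers of either list were called by limma or edgeR (2 of smooth muscle and 3 of endothelium at an unadjusted p under 0.05, and 1 endothelial marker called by DESeq2). There 6 of 8 smooth muscle estimates were above 0 (median 0.41) and 5 of 8 endothelial estimates below (median -0.07). Ventricular markers did not overlap between genotypes in either atrium, at 437 to 851 in control and 164 to 284 in mutant right atria and at 132 to 1093 and 55.2 to 101 in left atria (exact permutation p = 0.00794 in each, the smallest possible, adjusted p = 0.0899). Lymphocyte markers summed to 63.2 to 85.8 in control and 151 to 204.5 in mutant right atria (exact permutation p = 0.00794, adjusted p = 0.0899), of which the T cell receptor gene Trac made 30.7 and 143 on average. The part of these cell types in the members' levels was not tested.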

How the data were processed

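RNA of whole right and left atria was sequenced in 20 libraries. Per the labels, libraries were made with a TruSeq kit, which keeps no strand, and the submitters' processing notes name STAR, DESeq2 and mm10 without versions. The values deposited by the authors are a signal, 1 table per atrium: read counts scaled by DESeq2 size factors that were set within each table. Dividing by each library's step gave back whole reads for 100% of values within 0.01 reads, a check of little power in mutant left 3. The deposited columns of the authors' own fold changes and adjusted p-values were not used. The right table held 40924 entries, of which 6275 without values and 1203 repeats were removed.

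Genes with a mean of at least 10 were tested per atrium with limma 3.58.1 (R 4.3.3) on log2(normalized count + 1), with a mean-variance trend, two-sided, Benjamini-Hochberg adjustment over all tested genes and a call at an adjusted p under 0.05. Fold changes are on that scale, which understates the change of low genes. To compare the atria, the change in right atria was subtracted from that in left atria in a model of all 20 libraries. For library properties, exact permutation tests (two-sided, 5 libraries a side) were used, whose smallest p is 0.00794. Alternatives changed the pseudocount (0.5, 5), the filter (none, mean 50) or the scaling (TMM, quantile), or used a robust step, a replicate block, 1 model of all groups, fewer libraries, or edgeR 4.0.16 or DESeq2 1.42.0 on the recovered reads. Fits were tested on simulated data. Gene positions, exon lengths and overlaps came from GENCODE M21. Genes named are the 9 members, called genes or the 3 most abundant of each pathway list, and the genes most like each member by mean r among those with a mean of at least 50, predicted genes passed over. The members and lists were chosen with earlier results of these data known.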

Additional observations from a re-analysis of the deposited data

Results flagged for a closer look

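Dixon's test was applied to 36 groups of 5 libraries, 1 for each gene, genotype and atrium, and chance marks about 1 in 20 such groups. It marked 2. Ptgs1 in control left 1, at 1273 normalized counts, stood apart from the other left controls by 0.753 of their range. Ptgir in mutant left 4, at 75.7 normalized counts, stood apart from the other left mutants by 0.727 of their range.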

How the results depend on the processing

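Over the alternatives run, Ptgds stayed between -1.93 and -1.70 on the log2 scale in right atria and between -0.85 and -0.29 in left atria. In right atria 1 of 8 members was called, not 2, with quantile scaling, a robust empirical Bayes step, the replicate block or edgeR, 0 with all 4 groups in 1 model, and 1 to 2 when a library was left out. In each case but that of the 4 groups the call lost was that of Ptgis, which had adjusted p of 0.0524 (quantile), 0.0656 (robust), 0.0637 (block), 0.0626 (edgeR) and 0.109 (4 groups), and of 0.0752 to 0.105 without control 2 or 3 or mutant 2, 3, 4 or 5. Without control right 5 and mutant right 1, a choice made after seeing the data, 4 were called. In left atria 1 of 8 was called, not 0, with quantile scaling (Ptgfr, 0.67, adjusted p = 0.00947), with all 4 groups in 1 model (Ptgfr, 0.46, adjusted p = 0.0224) and without control left 4 and mutant left 4, the libraries of highest mitochondrial rRNA share, chosen after seeing the data (Ptgs2, -1.19, adjusted p = 0.0221), and 0 to 1 when a library was left out. For Ptgs2, control left 4 was the lowest left control and mutant left 4 the highest left mutant. Over all genes, right calls went from 890 to 267 with all 4 groups in 1 model and to 1312 with DESeq2. Left calls went from 158 to 693 with the replicate block, 431 with DESeq2, 1235 with all 4 groups in 1 model, 71 to 370 when a library was left out, 89 without control left 1 and 4 and 245 without control left 4 and mutant left 4. Calls for the difference between atria went from 8 to 38 with DESeq2, 2 with the number within each genotype as a replicate block and 0 to 11 when a library was left out, and no member was called in any of 31 alternatives. On the recovered whole reads edgeR called 870 genes in right atria, 170 in left atria and 10 for the difference. The sign of Ptgir in left atria turned with TMM scaling (0.0016) and ran to 0.19 when a library was left out, from -0.51 over all alternatives. The difference between atria of Hpgds ran from -0.41 to 0.0116. The labels do not say what a replicate number marks, and since not every same-numbered pair of control and mutant libraries correlated above 0.1, the numbers were not taken as pairs. These correlations were -0.0015 to 0.439 in right atria and 0.0992 to 0.395, all 5 above 0, in left atria, where 3 of 5 controls matched their own number best (2 of 5 in right). In right atria library 3 had the lowest and library 5 the highest mitochondrial rRNA share in both genotypes. Same-numbered right and left libraries correlated at 0.339 to 0.526 in controls, each the best match, and -0.0861 to 0.268 in mutants, and the replicate block gave 885 right and 693 left calls and 6 for the difference. The cause of these shifts was not tested. Ptgds and Ptges rest on few reads in left atria, which limits what can be seen there.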
